A study of Mus musculus with 2 samples.

Results

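The semaphorins, plexins and neuropilins are the 31 genes whose symbols have the form Sema3 to Sema7 with 1 letter a to g, Plxn with 1 letter a to d and 1 digit, or Nrp1 and Nrp2. They comprise 20 semaphorins, 9 plexins and 2 neuropilins among 39098 gene symbols, and all 31 were listed in both libraries. The cells came from the right trigeminal ganglion (TG) of C57BL/6 males aged 5 to 8 weeks, taken 7 days after an injection of 20 μL into the right vibrissal pad, and their RNA was read on the BD Rhapsody platform. In the control group the injection was saline by the methods, although its label says untreated, and in the other group it was complete Freund's adjuvant (CFA), which causes local inflammation. Each group had 1 library, and the number of mice pooled in each is not given. Accordingly, no test of CFA against control was possible, and all intervals below are 95% intervals for counting error only. Intervals for levels and ratios leave out variation between cells as well as between mice.

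Semaphorins are guidance cues that repel or attract growing axons. Class 3 members are secreted, classes 4 to 6 span the membrane, and Sema7a is held by a lipid anchor. Plexins are their signalling receptors, and neuropilins are co-receptors through which most class 3 semaphorins reach A-type plexins, Nrp1 mainly for Sema3a and Nrp2 mainly for Sema3f. In sensory ganglia these genes guide and sort axons during development, and several stay on in adult neurons, glia and vessels.

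After filtering, 6695 control and 3661 CFA cells remained, of which 5486 and 2948 fell in 1 of 10 broad classes set by raw unique molecular identifier (UMI) counts of marker genes, with no member of the family among the markers. The 727 control and 380 CFA neurons had median depths of 47439 and 38545 UMIs per cell, against 842.5 to 2397 and 843.5 to 2997.5 UMIs in the other classes. Levels are counts per 1000000 UMIs of the class (CPM), given for control first and CFA second. Neurons were divided into Mrgprd+ non-peptidergic neurons (NP1), Mrgpra3+ neurons (NP2), Sst+ Nppb+ neurons (PEP2), Trpm8+ neurons, P2ry1+ C-fibre low-threshold mechanoreceptors (cLTMR), peptidergic neurons with little Nefh and with or without Sstr2 (PEP-C Sstr2+ and PEP-C Sstr2-), peptidergic neurons with Nefh (PEP Nefh+) and Nefh+ neurons with little Calca (NF). The CFA library held only 7 PEP Nefh+ and 9 NF neurons, so these classes are given mainly as UMI counts. Markers kept out of the gates were all highest in their own class for neurons, NP1, PEP2, Trpm8, cLTMR, fibroblasts, endothelial cells, mural cells, macrophages and T/NK cells. For Th in control cLTMR the lead was narrow, at 151 CPM against 149 CPM in another class, and Penk was scarce even in Trpm8 neurons, at 3.34 and 0.982 CPM. The peptidergic classes share their markers, and NP2, NF and the Schwann, satellite and oligodendrocyte-like classes had only part of theirs highest, with no such marker at 0. The 2 libraries shared 27 cell labels.

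**Figure D1:**
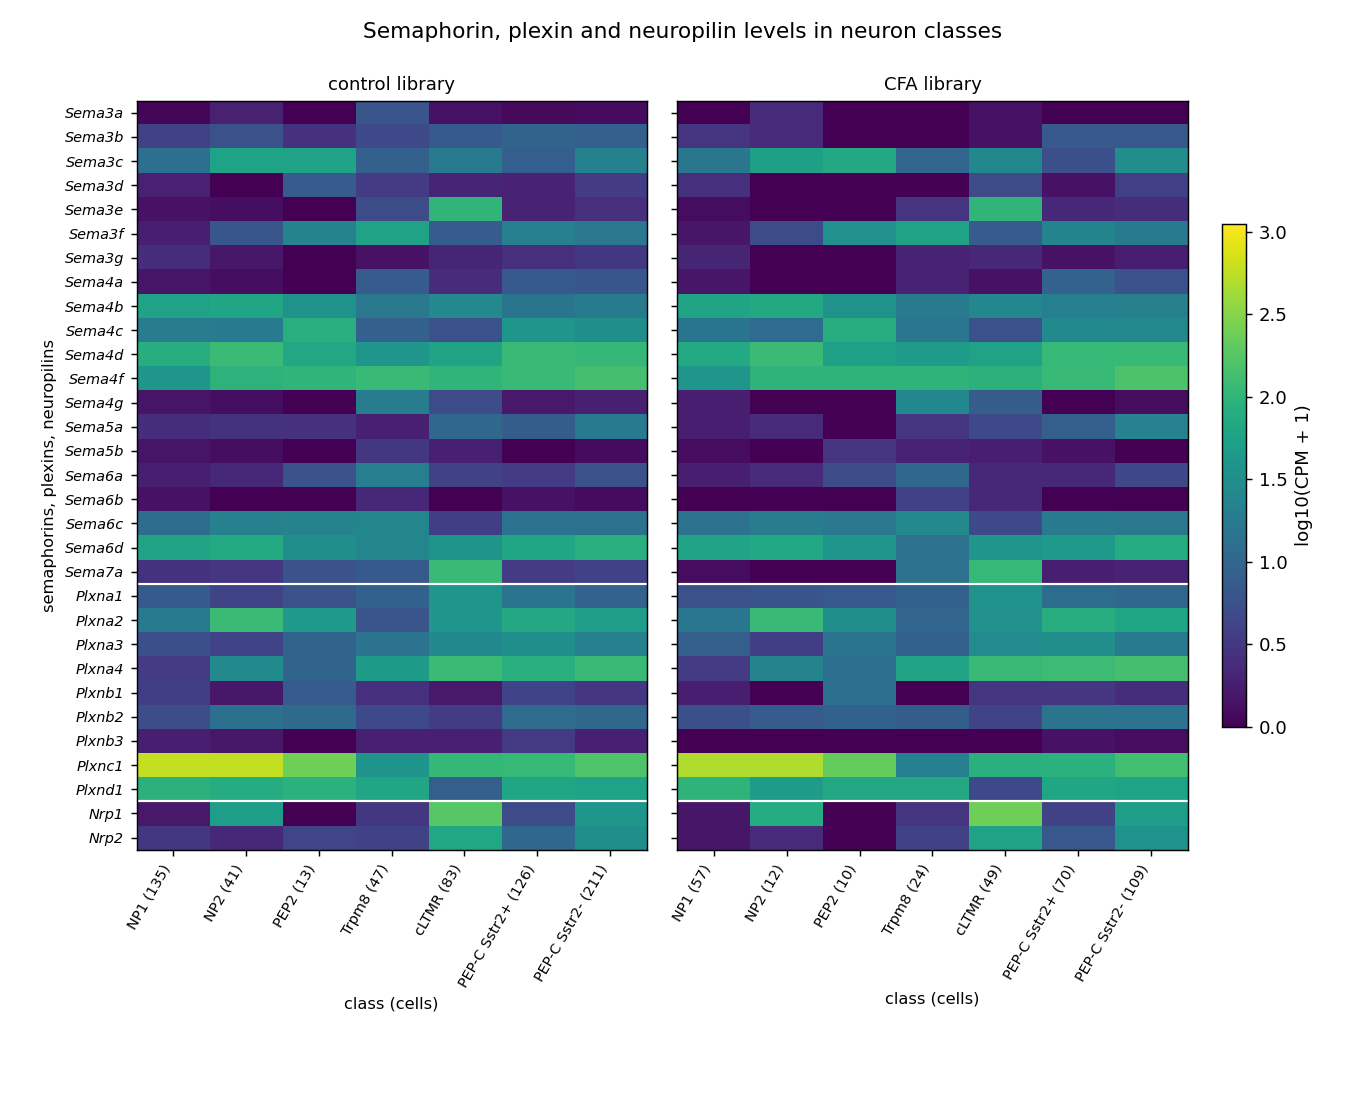
Level of each of the 31 genes (rows) in the 7 neuron classes with at least 10 cells in each library (columns, cells in parentheses), as log10(CPM + 1), for the control (left) and CFA (right) library. Plxnc1 was brightest in NP1 and NP2, while Nrp1, Sema3e and Sema7a stood out in cLTMR in both libraries.

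Of the 31 genes, 20 reached 20 CPM in at least 1 neuron class in both libraries. Sema3d did so only in NF neurons, at 28.2 and 25.7 CPM on 14 and 7 UMIs. Sema5a did so only in PEP Nefh+ neurons, at 44.9 and 59.8 CPM on 55 and 34 UMIs. The 11 genes that did not reach this level were Plxnb1, Plxnb2, Plxnb3, Sema3a, Sema3b, Sema3g, Sema4a, Sema4g, Sema5b, Sema6a and Sema6b. All B-type plexins are in this low group. Sema3a, the classical repellent of sensory axons, stayed at or below 0.634 CPM over all neurons in either library.

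Plxnc1, the receptor of Sema7a, was highest in the non-peptidergic neurons. Control NP1 neurons held 589 CPM (574 to 605) and CFA NP1 neurons 487 CPM (465 to 510). The NP2 values were 593 CPM (567 to 619) and 490 CPM (441 to 542), again control first. NP1 and NP2 were not separable by their counts, with a log2 ratio of NP1 over NP2 of -0.0087 (-0.082 to 0.065) in control and -0.0083 (-0.17 to 0.16) in CFA. A Plxnc1 UMI was found in 135 of 135 control and 57 of 57 CFA NP1 neurons, at a median of 42 and 28 UMIs per cell. After all neurons were thinned to 5000 UMIs, 91.9% and 91.2% of NP1 neurons still had one, against 10.6% and 4.17% of Trpm8 neurons, and the unthinned shares in Trpm8 neurons were 72.3% and 58.3%. Median depth was 74723 and 62681 UMIs in NP1 and 47541 and 42344 UMIs in Trpm8 neurons.

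Below the non-peptidergic classes came PEP2, at 238 and 213 CPM, and PEP-C Sstr2-, at 163 and 133 CPM. PEP-C Sstr2+ neurons, at 108 and 88.5 CPM, and cLTMR, at 106 and 85.8 CPM, lay side by side. Trpm8 neurons were lowest of the 7 classes, at 37.1 and 19.6 CPM. The order was therefore the same in both libraries from PEP2 downwards, and within the peptidergic C neurons the Sstr2- class exceeded the Sstr2+ class by a log2 ratio of 0.59 (0.44 to 0.74) in control and 0.59 (0.36 to 0.82) in CFA.

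Plxna4, a signalling partner of both neuropilins and a receptor of Sema6a, was distributed differently. It was almost missing from NP1, at 2.43 CPM (24 UMIs) in control and 2.38 CPM (9 UMIs) in CFA. PEP2 neurons also had little of it, at 8.50 CPM (5 UMIs) and 11.9 CPM (6 UMIs). Levels reached 119 and 116 CPM in cLTMR, 114 and 142 CPM in PEP-C Sstr2-, and 86.1 and 121 CPM in PEP-C Sstr2+. The log2 ratio of cLTMR over NP1 was 5.61 (5.03 to 6.27) and 5.61 (4.66 to 6.75). A Plxna4 UMI was present in 21 of 135 control and 8 of 57 CFA NP1 neurons, whereas 189 of 211 and 100 of 109 PEP-C Sstr2- neurons had one. Trpm8 neurons held 45.5 and 58.9 CPM and NP2 neurons 26.7 and 22.4 CPM, so that NP1 and NP2, alike in Plxnc1, differed in Plxna4. PEP Nefh+ neurons gave 149 and 98 Plxna4 UMIs, and NF neurons 47 and 58.

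Plxna2, another receptor of class 6 semaphorins, also separated the non-peptidergic classes. It was found at 118 and 117 CPM in NP2 and at 16.4 and 14.8 CPM in NP1, a log2 ratio of 2.85 (2.58 to 3.12) and 2.98 (2.48 to 3.49). Plxnd1, the receptor that binds Sema3e directly, was present in most neuron classes but scarce in cLTMR. Its level was 90.5 and 94.6 CPM in NP1 and 7.49 and 3.68 CPM in cLTMR, a log2 ratio of 3.59 (3.11 to 4.12) and 4.68 (3.74 to 5.83). In the thinned neurons, a Plxnd1 UMI was seen in 28.1% and 35.1% of NP1 neurons and in 4.82% and 4.08% of cLTMR neurons. Without thinning, 97.0% and 98.2% of NP1 and 24.1% and 12.2% of cLTMR neurons had one.

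The neuropilins were higher in the Sstr2- than in the Sstr2+ peptidergic C neurons, although not every Sstr2- neuron had Nrp1. A Nrp1 UMI was found in 97 of 211 control and 61 of 109 CFA Sstr2- neurons, at medians of 0 and 1 UMIs. Of the Sstr2+ neurons, 11 of 126 and 3 of 70 had one. Nrp1 was at 4.11 and 2.86 CPM in PEP-C Sstr2+ and at 39.4 and 50.2 CPM in PEP-C Sstr2-, a log2 ratio of 3.26 (2.61 to 3.99) and 4.14 (3.07 to 5.47). Nrp2 showed the same direction, at 9.86 and 5.71 CPM against 31.6 and 36.3 CPM, with a log2 ratio of 1.68 (1.23 to 2.16) and 2.67 (1.87 to 3.57). A pair of ligands went the same way. Sema3c was at 7.19 and 4.49 CPM in the Sstr2+ class and 20.9 and 29.9 CPM in the Sstr2- class, and Sema5a at 6.99 and 7.35 CPM against 16.6 and 21.3 CPM. Plxna4 differed less between them, by 0.40 (0.23 to 0.57) and 0.23 (0.022 to 0.44) on the log2 scale. Outside cLTMR and the peptidergic classes, Nrp1 was found in NP2, at 50.8 and 76.3 CPM, where 21 of 41 control and 7 of 12 CFA neurons had a UMI. It was at 0.607 and 0.53 CPM in NP1 and at 0 UMIs in PEP2, where the upper limits were 6.27 and 7.29 CPM.

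**Figure D2:**
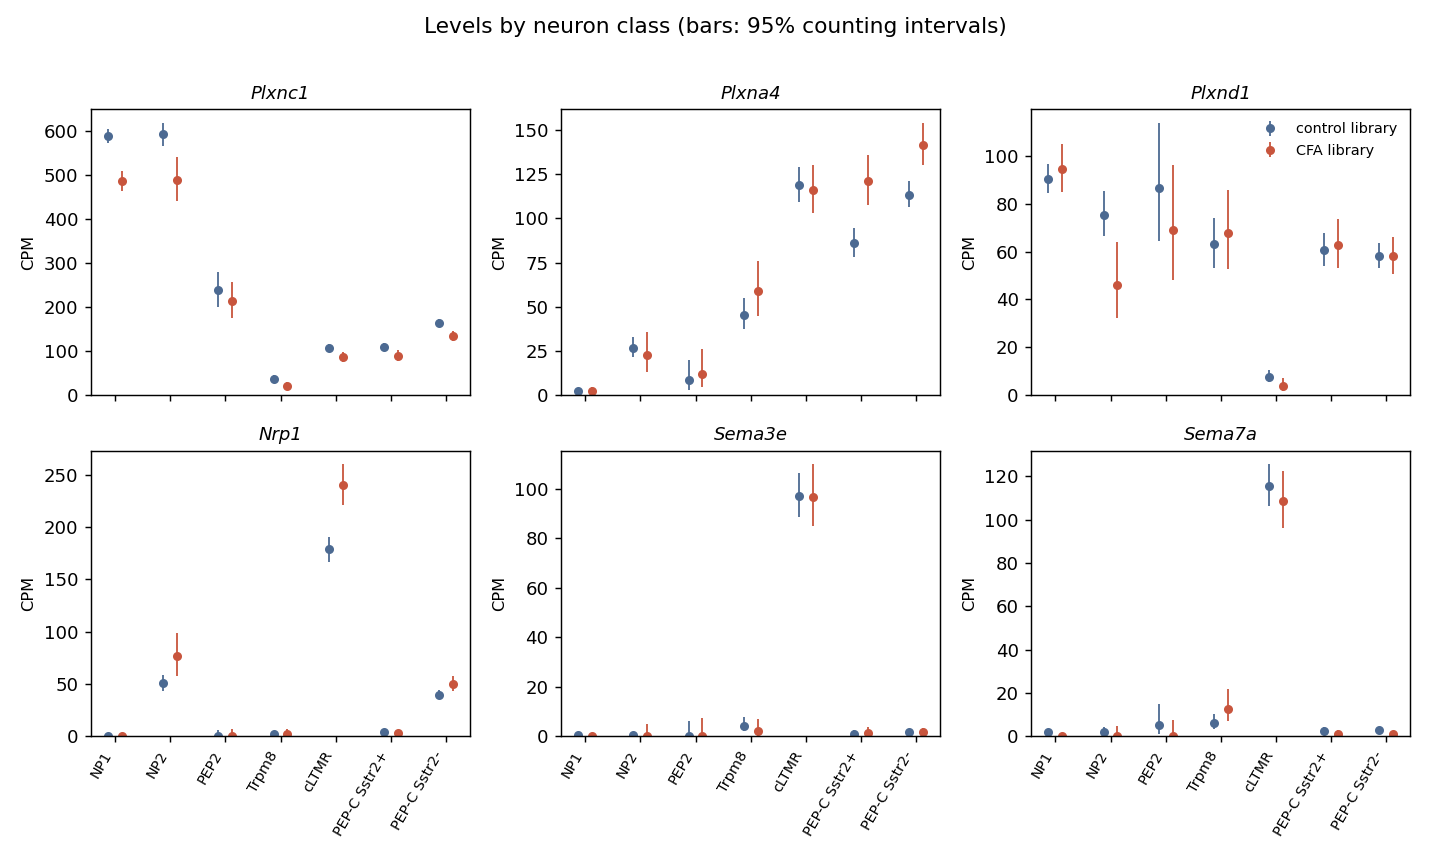
Level of 4 receptor genes and 2 ligand genes in the 7 neuron classes with at least 10 cells in each library, in CPM on linear axes that start at 0. Points are single libraries and bars are 95% counting intervals, and the figure shows Plxnc1 at 487 to 593 CPM in NP1 and NP2 beside Sema3e and Sema7a at 96.8 to 116 CPM in cLTMR.

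Across the 9 neuron classes, 21 genes of the family had at least 50 UMIs in the classed neurons of each library. For 4 of them (19.0%), the same class was highest in both libraries and at least 2-fold above the next, compared with 3.59% of 11774 genes tested in the same way. Nrp1, Sema3e and Sema7a led in cLTMR, and Sema4c led in PEP2. Sema4c, a ligand of Plxnb2, was at 83.3 and 79.0 CPM there and at 39.0 and 27.7 CPM in the next class, PEP-C Sstr2+. Its PEP2 values rest on 13 control and 10 CFA neurons.

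Sema3e, a secreted ligand of Plxnd1, led in cLTMR in both libraries. Its cLTMR levels were 97.2 CPM (88.6 to 106) and 96.8 CPM (84.9 to 110), 16.1-fold and 5.27-fold above the next class, NF, which had only 3 and 5 UMIs. Of the cLTMR neurons 88.0% and 87.8% had a Sema3e UMI, or 30.1% and 30.6% after thinning. In NP1, the thinned share was 0.741% in control and 0 of 57 neurons in CFA (upper limit 6.27%), and the unthinned share was 2.96% and 1.75%. Sema7a, the ligand of Plxnc1, was at 116 CPM (106 to 126) and 109 CPM (96.0 to 123) in cLTMR. NF neurons were next with 25 and 4 UMIs, and cLTMR was 2.29-fold and 7.39-fold above them. In NP1, where Plxnc1 was high, Sema7a was at 1.82 and 0.265 CPM. Nrp1 was at 179 CPM (167 to 191) and 240 CPM (221 to 260) in cLTMR, 3.52-fold and 2.96-fold above the next class.

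Within the cLTMR gate these genes went with Tafa4, a cLTMR gene not used in the gate. Of 69 control and 45 CFA neurons with at least 3 Tafa4 UMIs, 67 and 41 had a Sema3e UMI, 68 and 44 a Sema7a UMI, and 69 and 45 a Nrp1 UMI. Plxnd1 was found in 11 and 4 of the same neurons, and Plxnc1, the receptor of Sema7a, in 68 and 41. Among the 14 control and 4 CFA neurons below 3 Tafa4 UMIs, 6 and 2 had Sema3e, 8 and 2 had Sema7a, 6 and 2 had Nrp1, and 9 and 2 had Plxnd1. Plxnc1 was found in 13 and 4 of these neurons. Their Calca was at 3643 and 3603 CPM, against 227 and 55.0 CPM in the Tafa4+ neurons, and 1 CFA neuron held 495 of its 498 UMIs. Th was at 11.4 and 0 CPM against 179 and 350 CPM, and Slc17a8 at 3.80 and 14.5 CPM against 99.6 and 92.7 CPM. Whether the neurons below 3 Tafa4 UMIs are cLTMR was not tested. The Tafa4+ cLTMR neurons thus carried the ligand Sema3e with little of its receptor. Fabp7 and Apoe, genes of satellite glia, together stood at 96.4 and 51.1 CPM in cLTMR and at 89.3 and 48.1 CPM over all neurons. When the 25% of neurons with the most Fabp7 and Apoe were left out of each library, 60 of 83 and 38 of 49 cLTMR neurons remained, with Sema3e at 91.2 and 91.0 CPM, Sema7a at 114 and 106 CPM and Nrp1 at 167 and 232 CPM. Nrp1 and Sema3e still led in cLTMR in that setting, and Sema7a was no longer 2-fold above the next class. RNA of other glia is not covered by these genes.

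The upstream bases of Sema3e and Sema7a are shown because these ligand genes had the same leading neuron class. Each run covers the 250 bases before the RefSeq start in GRCm38.p6, 5′ to 3′ on the gene's strand, with CG dinucleotides in capitals. They lie at chr5:14025026-14025275 (+) and chr9:57939862-57940111 (+), directly before gene models at chr5:14025276-14256689 and chr9:57940112-57962865.
Sema3e: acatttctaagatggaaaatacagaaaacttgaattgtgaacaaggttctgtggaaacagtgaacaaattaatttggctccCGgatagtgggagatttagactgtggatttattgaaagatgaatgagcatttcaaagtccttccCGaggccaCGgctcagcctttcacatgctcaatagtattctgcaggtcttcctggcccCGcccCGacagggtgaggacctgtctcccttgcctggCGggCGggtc
Sema7a: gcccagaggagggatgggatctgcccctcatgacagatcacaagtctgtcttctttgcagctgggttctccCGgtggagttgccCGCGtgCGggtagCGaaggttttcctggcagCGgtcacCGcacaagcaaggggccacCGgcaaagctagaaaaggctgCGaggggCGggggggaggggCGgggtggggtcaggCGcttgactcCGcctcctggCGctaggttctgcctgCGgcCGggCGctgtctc
The Sema3e window held 7 CG dinucleotides and the Sema7a window 17, and 53.7% and 76.5% of 32851 mouse promoter windows had fewer. Neither window held TGTGGT, the core motif of Runx factors, on either strand, while 14.0% of all windows and 5 of 37 windows of 26 members did. This says only that these letters are not in these windows.

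Other semaphorins were spread over several neuron classes. Sema3f, a ligand of Nrp2, was highest in Trpm8 neurons, at 56.7 and 56.0 CPM, followed by NF neurons at 42.4 and 44.1 CPM on 21 and 12 UMIs. PEP2, at 22.1 and 33.6 CPM, was next among the 7 classes with at least 10 cells in each library, and its difference from Trpm8 neurons in the CFA library was within counting error (log2 ratio 0.74, -0.065 to 1.61). Sema4g was also seen mainly in Trpm8 neurons, at 17.9 and 25.5 CPM. Sema3c was at 58.1 and 52.7 CPM in NP2 and 57.8 and 69.1 CPM in PEP2, classes that did not differ beyond counting error. Sema4b, at 60.8 and 69.8 CPM in NP2 and 56.7 and 59.9 CPM in NP1, was higher in the non-peptidergic classes than in the peptidergic C classes, where it was at 14.4 to 20.0 CPM. Sema4f was low in NP1 only, at 39.0 and 38.1 CPM against 141 and 157 CPM in PEP-C Sstr2-. The log2 ratio of PEP-C Sstr2- over NP1 was 1.85 (1.69 to 2.02) and 2.04 (1.78 to 2.31). NP2 neurons, at 93.9 and 96.1 CPM, were near PEP2 at 98.6 and 94.8 CPM. Sema4d, a ligand of Plxnb1, was at 120 and 120 CPM in NP2 and at 108 and 115 CPM in PEP-C Sstr2-, which the counts did not separate. Sema6d ranged from 23.8 to 83.0 CPM in control and from 12.8 to 77.4 CPM in CFA, lowest in Trpm8 and highest in PEP-C Sstr2- neurons in both.

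**Figure D3:**
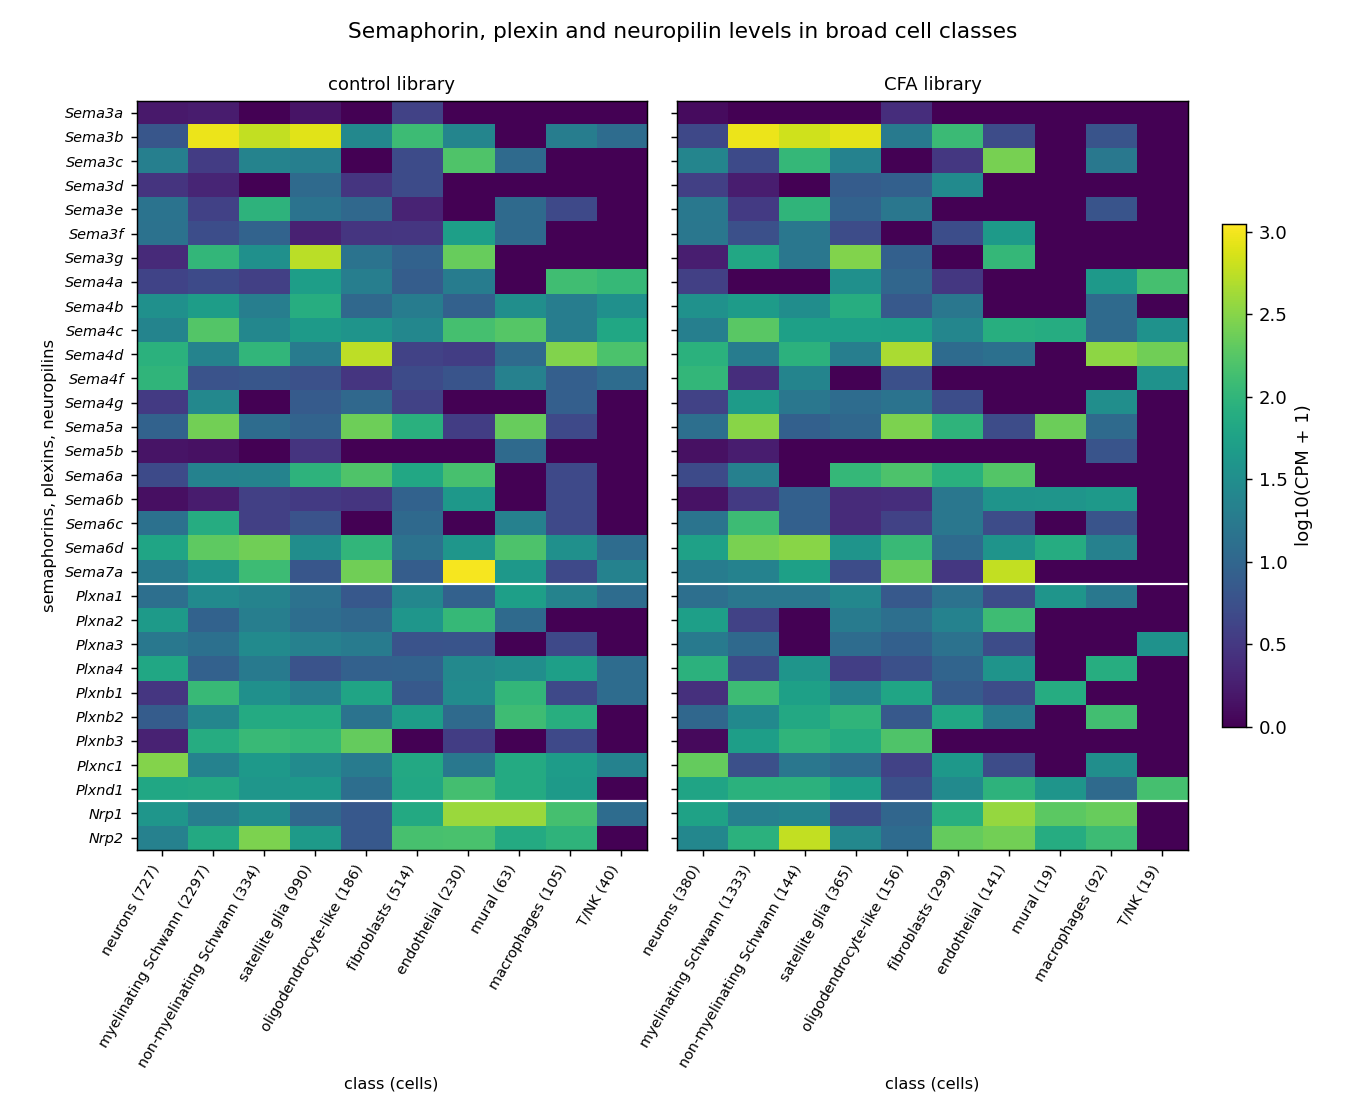
Level of each of the 31 genes (rows) in the 10 broad cell classes (columns, cells in parentheses), as log10(CPM + 1), for the control (left) and CFA (right) library. Sema7a was brightest in endothelial cells, Sema3g in satellite glia, Sema3b across satellite glia and Schwann cells, and Plxnc1 and Sema4f in neurons.

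Over the broad classes, 28 genes had at least 50 UMIs in each library, and 9 of them (32.1%) had 1 leading class in both, compared with 18.2% of 13215 genes. Neurons led for a receptor and a ligand. Plxnc1 was at 301 and 214 CPM in neurons, and at 68.2 and 41.1 CPM in fibroblasts. Sema4f was at 96.7 and 102 CPM. Free neuronal RNA was read from Tubb3, Stmn2, Uchl1 and Calca, as the share of their neuron level found in other classes. Cells in those classes held at most 3 Tubb3 and at most 3 Snap25 UMIs by their gate, so the Tubb3 share is not independent of the gate. The shares of Tubb3, Stmn2, Uchl1 and Calca were 5.92% to 7.03% in control and 2.76% to 3.79% in CFA in myelinating Schwann cells. In fibroblasts they were 4.17% to 5.54% and 1.31% to 1.86%. Plxnc1 was at 7.07% and 2.14% of its neuron level in myelinating Schwann cells, close to or under this background, but at 22.6% and 19.2% in fibroblasts, above it. In both libraries Plxnc1 was also above the background of the class in non-myelinating Schwann cells (14.6% and 7.10%), satellite glia (9.41% and 5.09%) and macrophages (15.9% and 14.7%). Sema4f was at or below the background in myelinating Schwann cells, satellite glia, fibroblasts and endothelial cells in both libraries.

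Endothelial cells led for 4 genes. The levels of Sema7a were 1032 CPM (933 to 1139) and 588 CPM (496 to 693), with oligodendrocyte-like cells next at 243 and 228 CPM. A Sema7a UMI was found in 62.6% and 55.3% of endothelial cells and in 0.778% and 0.334% of fibroblasts, at median depths of 1344.5 and 1545 UMIs and of 1758.5 and 1320 UMIs. After thinning to 500 UMIs the shares were 34.8% and 27.0% of endothelial cells against 0.588% and 0.339% of fibroblasts. The other 3 were Sema3c, at 161 and 262 CPM, Sema3f, at 52.0 and 45.0 CPM on 20 and 11 UMIs, and the receptor Plxna2, at 109 and 127 CPM. With cells weighted equally, Plxna2 and Sema3f no longer led, and Sema3f did not lead without interferon-responding cells either. Endothelial cells also held Nrp1, a co-receptor for vascular endothelial growth factor as well, at 393 and 368 CPM. Mural cells had Nrp1 at 385 CPM on 37 UMIs in control and 190 CPM on 5 UMIs in CFA, and endothelial cells had the highest level of Nrp1 among the broad classes in both libraries.

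Each of 3 glial classes led for 1 ligand. Sema3g, a secreted ligand, led in satellite glia, where its levels were 541 CPM (510 to 573) and 295 CPM (257 to 337), with endothelial cells next at 216 and 106 CPM. Sema6c led in myelinating Schwann cells at 76.7 and 121 CPM. Sema3e led in non-myelinating Schwann cells at 93.5 and 98.6 CPM, on 34 and 13 UMIs, so the class nearest in level to cLTMR for this gene was not neuronal. Sema3b was shared by all of these glia, at 909 and 919 CPM in myelinating Schwann cells, 824 and 832 CPM in satellite glia and 580 and 675 CPM in non-myelinating Schwann cells. In contrast, 3.04% and 0.709% of endothelial cells had a Sema3b UMI against 72.2% and 71.2% of satellite glia, or 0.87% and 0 of 141 cells (upper limit 2.58%) against 31.7% and 34.2% after thinning.

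Sema5a was at 253 and 321 CPM in myelinating Schwann cells and 239 and 281 CPM in oligodendrocyte-like cells, which the counts did not separate. Sema6d was at 245 and 318 CPM in non-myelinating and 194 and 271 CPM in myelinating Schwann cells, again within counting error. Sema4d was highest in oligodendrocyte-like cells at 553 and 455 CPM, followed by macrophages at 299 and 336 CPM. With each oligodendrocyte-like cell weighted equally, its level there was 326 and 377 CPM, and median depth in this class was 842.5 and 2997.5 UMIs.

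The B-type plexins, low in neurons, were higher in other classes. Plxnb3, a receptor of Sema5a, was at 214 and 161 CPM in oligodendrocyte-like cells and 0.977 and 0.182 CPM in neurons. Plxnb1 was at 114 and 122 CPM in myelinating Schwann cells and 2.01 and 1.64 CPM in neurons, with mural cells at 104 and 76.1 CPM on 10 and 2 UMIs. Plxnb2 was at 81.3 and 131 CPM in macrophages, 73.0 and 97.9 CPM in satellite glia and 6.81 and 9.45 CPM in neurons, and mural cells had 12 and 0 UMIs of it (125 CPM in control). Nrp2 was highest in non-myelinating Schwann cells, at 280 and 591 CPM, where 26.9% and 39.6% of cells had a UMI (13.2% and 25.7% after thinning), against 1.61% and 4.49% of oligodendrocyte-like cells (0.704% and 0.685%).

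Known ligand and receptor pairs lay in the same class in some cases and in different classes in others. Sema3c and its co-receptor Nrp1 were both highest in endothelial cells among the broad classes, at 161 and 262 CPM and at 393 and 368 CPM. Plxnb3 was highest in oligodendrocyte-like cells, where its ligand Sema5a was at 239 and 281 CPM. Sema7a was highest in endothelial cells and, among neurons, in cLTMR, while Plxnc1 was highest in NP2 and NP1 neurons. Both genes were found in cLTMR, however. Of the Tafa4+ cLTMR neurons, 68 of 69 in control and 41 of 45 in CFA had a Plxnc1 UMI. Sema7a was found in 68 and 44 of the same 69 and 45 neurons. Sema3e was highest in non-myelinating Schwann cells and cLTMR, and its receptor Plxnd1 was lowest in cLTMR among the neuron classes, with 135 and 94.0 CPM in endothelial cells. Sema4d was highest in oligodendrocyte-like cells and Plxnb1 in myelinating Schwann cells. Neurons held Sema4d at 88.5 and 86.5 CPM and Plxnb1 at 2.01 and 1.64 CPM. These are levels of RNA in separate classes, and contact between the cells was not measured.

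In neurons, CFA and control were compared for the 26 genes with at least 100 UMIs over both libraries. Of these, 3 had a log2 ratio of CFA over control of at least 0.5, compared with 4.47% of 12893 genes, and 1 gene had a ratio of -0.5 or less, compared with 4.38%. The median ratio was 0.096 over these genes and -0.0043 over all genes. Nrp1 was at 39.1 CPM in control and 55.8 CPM in CFA (log2 ratio 0.51, 0.39 to 0.63), and Sema5a at 8.16 and 12.2 CPM (0.58, 0.31 to 0.84). The Sema5a ratio was not shared by all classes. NF neurons, 9 of them in CFA, had 6 and 37 of its 309 and 201 UMIs. In cLTMR it was at 9.78 and 3.68 CPM, and in PEP-C Sstr2- the interval included 0 (0.36, -0.046 to 0.76). Without the neurons highest in Fabp7 and Apoe, the ratio of Sema5a was -0.045, so its direction did not hold. Sema3d, the other gene above 0.5, had an interval that included 0 on 72 and 46 UMIs. Sema3b was lower in CFA, at 5.57 and 3.64 CPM (-0.62, -1.06 to -0.20). Fabp7 and Apoe were also lower in CFA neurons, as given above, and without the neurons that had the most of them the ratio of Sema3b was -1.01. Sema3b in neurons was under 1% of its level in myelinating Schwann cells in both libraries.

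Plxnc1 and Plxna4 stood just inside the threshold, in opposite directions. Plxnc1 was at 301 CPM in control and 214 CPM in CFA (-0.50, -0.55 to -0.44), and Plxna4 at 65.0 and 90.0 CPM (0.47, 0.38 to 0.56). The classes in which they differ were not equally sampled: NP1 made up 19.7% of classed control and 16.4% of classed CFA neurons, and NP2 5.97% and 3.46%. With the classes given the same weights in both libraries, the ratio was -0.29 for Plxnc1, 0.33 for Plxna4, 0.40 for Nrp1 and 0.47 for Sema5a, so that 1 gene, Sema3b, stayed past 0.5. Plxnc1 was past -0.5 with the gates halved (-0.51), without interferon-responding cells (-0.52), without the neurons highest in Fabp7 and Apoe (-0.53), with cells weighted equally (-0.54) and with cells thinned (-0.64). Plxna4 was at 0.50 without interferon-responding cells, just past the threshold. Nrp1, just past it as reported, was at 0.45 with cells weighted equally and 0.31 with cells thinned. Which genes near 0.5 passed therefore varied with the setting.

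Within classes, Plxnc1 was lower in CFA by a similar amount in each of 5 classes. The log2 ratio was -0.28 (-0.35 to -0.20) in NP1, -0.28 (-0.44 to -0.12) in NP2, -0.31 (-0.55 to -0.075) in cLTMR, -0.29 (-0.53 to -0.062) in PEP-C Sstr2+ and -0.29 (-0.44 to -0.15) in PEP-C Sstr2-. In PEP2 the interval included 0, in PEP Nefh+ neurons the ratio was 0.056 (-0.44 to 0.53, on 114 and 55 UMIs), and in Trpm8 neurons the ratio was -0.92 (-1.70 to -0.21) on 89 and 20 UMIs. The median over all genes in NP1 was -0.015. Plxna4 differed among classes, at 0.49 (0.27 to 0.71) in PEP-C Sstr2+, 0.32 (0.17 to 0.47) in PEP-C Sstr2- and -0.034 (-0.24 to 0.17) in cLTMR. It was at 0.50 (0.12 to 0.88) in PEP Nefh+ and 1.17 (0.59 to 1.76) in NF neurons, on 7 and 9 CFA neurons. The NF neurons of the 2 libraries also differed in median depth, at 43087 UMIs in control and 19470 UMIs in CFA. Their Fabp7 and Apoe together were at 60.5 and 460 CPM, and their interferon-responding genes, listed below, at 1061 and 44.1 CPM. Nrp1 was higher in CFA in cLTMR (0.43, 0.27 to 0.58) and in PEP-C Sstr2- (0.35, 0.091 to 0.61). Whether mice differ this much from one another cannot be told apart from CFA with 1 library a group.

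Within the 4 neuron classes with the most cells, 3 pairs of a gene and a class passed 0.5. None of 10 did so in NP1 (7.37% of all genes tested there passed in either direction) and none of 12 in PEP-C Sstr2+ (10.3%). In cLTMR, 1 of 14 did (10.1%), namely Sema3c, at 16.4 and 25.3 CPM (0.62, 0.12 to 1.12). In PEP-C Sstr2-, 2 of 18 did (9.11%), Sema3c at 20.9 and 29.9 CPM (0.52, 0.17 to 0.87) and Plxnb2, whose interval included 0. In NP2, which had 12 CFA neurons, Nrp1 was at 0.59 (0.13 to 1.02) and Plxnd1 at -0.71 (-1.26 to -0.20, on 257 and 35 UMIs). The CFA NP2 neuron with the most Nrp1 held 26 of the 58 Nrp1 UMIs, so this ratio leans on 1 cell. PEP Nefh+ neurons, 7 of them in CFA, had Nrp1 at 0.75 (0.16 to 1.33) and Sema4d at -0.71 (-1.33 to -0.12), and Sema6d at -0.54 with an interval that included 0. NF neurons, 9 of them in CFA, had Plxna2 at 1.10 (0.50 to 1.70). The differences between the NF neurons of the 2 libraries given above apply here too, and their part in this ratio was not tested. Plxna4 was also past 0.5 in PEP Nefh+ and NF neurons, as given above. The share of all genes past 0.5 is not given for NP2, Trpm8, PEP Nefh+ and NF neurons. Ratios past 0.5 in these classes therefore have no background beside them. In cLTMR, Sema3e and Sema7a had close levels in the 2 libraries, as given above.

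**Figure D4:**
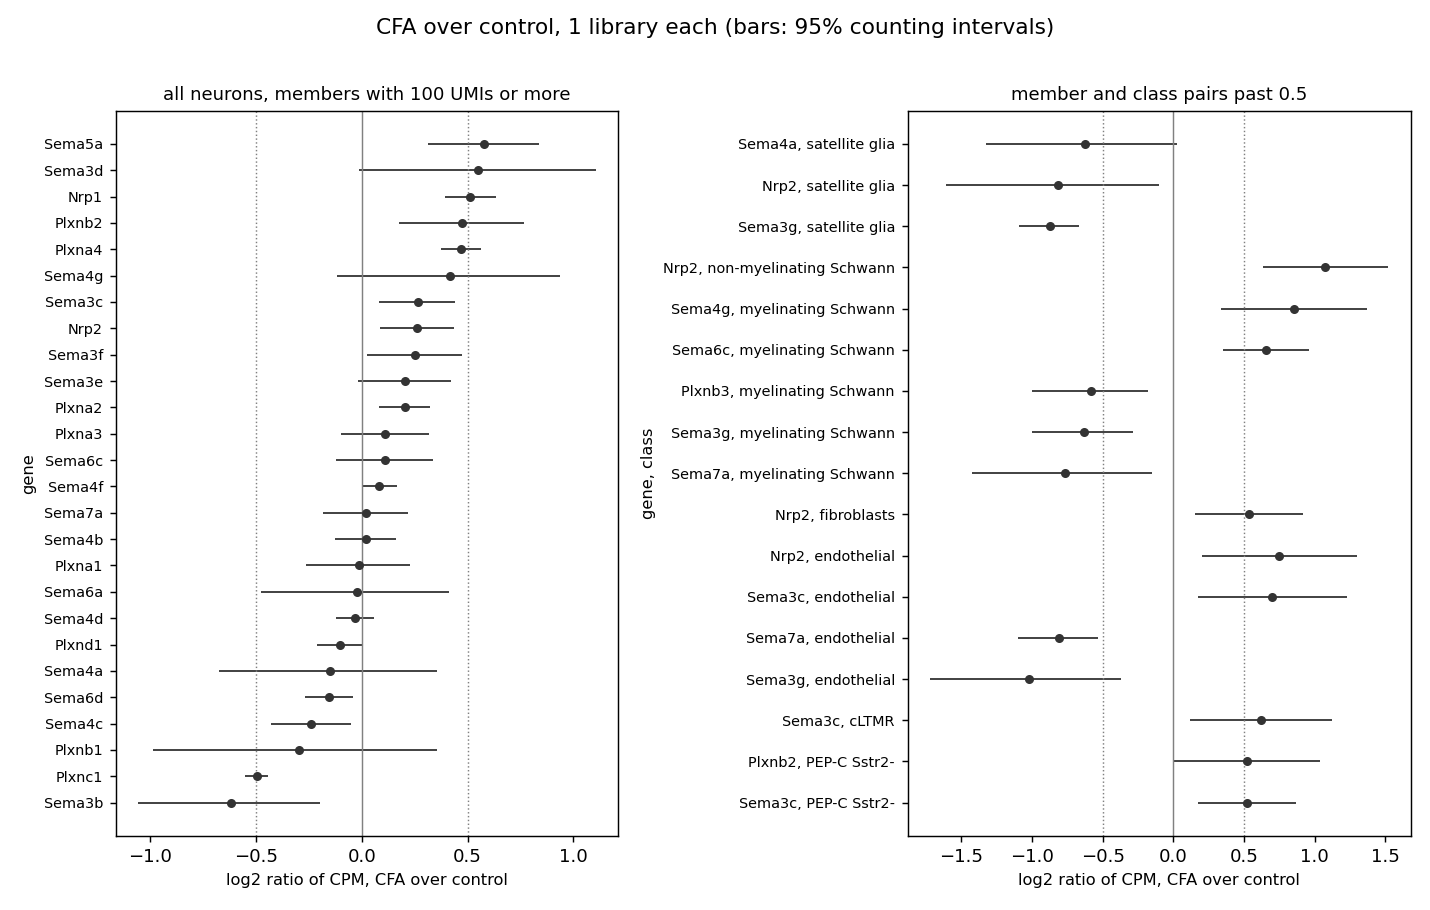
Log2 ratio of CPM, CFA over control, with 95% counting intervals, for the 26 genes with at least 100 UMIs in neurons (left) and for the 17 gene and class pairs past 0.5 in either direction (right) among the 10 classes compared for such pairs: NP1, cLTMR, the 2 PEP-C classes, the 4 glial classes, fibroblasts and endothelial cells. Dotted lines mark 0.5 and -0.5, and Sema7a and Sema3g are to the left and Sema3c and Nrp2 to the right of 0 in endothelial cells.

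In glia, fibroblasts and endothelial cells, 16.3% to 28.1% of all genes tested passed, more than in the 4 neuron classes above. These classes also had fewer UMIs, so the shares do not compare the size of differences between classes. In endothelial cells, 4 of 5 genes passed, compared with 21.5% of all genes. Sema7a was at 1032 and 588 CPM (-0.81, -1.10 to -0.53) and Sema3g at 216 and 106 CPM (-1.02, -1.72 to -0.37, on 83 and 26 UMIs). Sema3c was at 161 and 262 CPM (0.70, 0.17 to 1.23), and Nrp2 at 148 and 249.3 CPM (0.75, 0.21 to 1.30). The ligands were thus split in direction within the same class.

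In satellite glia, 3 of 10 passed (16.3% of all genes), all lower in CFA. Sema3g was at 541 and 295 CPM (-0.87, -1.09 to -0.66), and 49.3% of control and 34.2% of CFA cells had a UMI, or 21.5% and 11.8% after thinning, against 0.392% and 0 of 295 fibroblasts (upper limit 1.24%). Nrp2 was at 45.5 and 25.8 CPM on 98 and 19 UMIs (-0.82, -1.61 to -0.099), and the interval for Sema4a included 0. In myelinating Schwann cells, 5 of 14 passed (19.1%). Sema6c was at 76.7 and 121 CPM (0.66, 0.35 to 0.96) and Sema4g at 25.2 and 45.6 CPM (0.86, 0.34 to 1.37). Sema3g was at 103 and 66.2 CPM (-0.63, -0.996 to -0.28), Sema7a at 36.2 and 21.3 CPM (-0.77, -1.42 to -0.15) and Plxnb3 at 76.3 and 51.0 CPM (-0.58, -1.0 to -0.18). Sema3g was therefore lower in CFA in all 3 of the classes in which it was tested. Sema3b was nearly equal in the 2 libraries in the same glia, as given above.

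Nrp2 was at 280 and 591 CPM in non-myelinating Schwann cells (1.08, 0.63 to 1.52, on 102 and 78 UMIs), where 1 of 3 genes passed (28.1% of all genes). In fibroblasts, Nrp2 was at 144 and 209.7 CPM (0.54, 0.15 to 0.92), but at 0.95 with the gates doubled and 0.32 with cells weighted equally, and 1 of 5 genes passed (19.0%). None of 6 genes passed in oligodendrocyte-like cells (21.7%), where the median over all genes was 0.11.

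Interferon-responding genes (Gbp2, Iigp1, Cxcl9, Cxcl10, Gbp4 and Irgm1 summed) also differed between the libraries in these classes. They were at 3366 and 1962 CPM in endothelial cells, 2396 and 564 CPM in satellite glia, 1651 and 547 CPM in myelinating Schwann cells, 5076 and 1903 CPM in non-myelinating Schwann cells and 940 and 521 CPM in fibroblasts. Without the cells that had at least 1000 CPM of these genes, 85 of 230 control and 69 of 141 CFA endothelial cells remained, and Sema7a there was at 991 and 561 CPM (-0.82). Sema3g in the remaining satellite glia was at 499 and 295 CPM (-0.76). Of the 17 gene and class pairs past 0.5 in the 10 classes compared, which leave out NP2, Trpm8, PEP2, PEP Nefh+ and NF neurons, all 17 kept their direction, 7 fell under 100 UMIs, and Nrp2 in fibroblasts was at 0.46.

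Of 24 genes of semaphorin signalling chosen as partners, 20 had at least 100 UMIs in neurons. None was past 0.5, compared with 4.47% of 12893 genes, and 1 was past -0.5, compared with 4.38%, so the list did not stand out from all genes. The gene past -0.5 was Farp2, an exchange factor that binds A-type plexins. Its level was 7.90 CPM in control and 4.24 CPM in CFA (-0.90, -1.29 to -0.52). The median over the 20 genes was -0.026. Gsk3b, a kinase downstream of Sema3a, was at 442 and 580 CPM (0.39, 0.35 to 0.43), and Dpysl2, its collapsin response mediator substrate, at 415 and 503 CPM (0.28, 0.24 to 0.32).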

How the data were processed

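Both libraries were deposited as raw UMI counts per gene and cell, made by the authors from BD Rhapsody whole transcriptome reads. The submitters' processing notes name fastp and GRCm38, and the aligner, cell caller and strand setting are not given in the sources used here. The files held 7298 control and 4080 CFA cells with 48916096 and 22096268 UMIs. Cells with at least 150 genes and at most 25% mitochondrial UMIs were kept, and classes were set from raw UMIs of markers: for example neurons needed 10 Tubb3, 10 Snap25 and 5000 total UMIs, NP1 5 Mrgprd, NP2 5 Mrgpra3, PEP2 10 Sst and 5 Nppb, Trpm8 neurons 3 Trpm8 and cLTMR 5 P2ry1. The other broad classes needed at most 3 Tubb3 and at most 3 Snap25 UMIs. Cells passing several gates (371 and 193) or none (838 and 520) were left out. No doublet caller was run and doublets were not counted. The neuron gate set no limit on glial RNA, so it did not remove doublets of a neuron and a glial cell. Halving the gates moved 835 control and 466 CFA cells to another class or out of one, and doubling them moved 1186 and 777.

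Counts were summed per class and library, with exact Poisson intervals for CPM, conditional exact binomial intervals for ratios and Clopper-Pearson intervals for shares, none of which cover variation between mice. The intervals for CPM and ratios treat each UMI as independent, so they also leave out variation between the cells of a class. Shares were thinned to 5000 UMIs for neurons and 500 for other cells. Analyses used Python 3.11.15, numpy 2.4.6, scipy 1.17.1 and pandas 2.3.3 and were tested on simulated data. The simulated counts were sums without variation between cells. The members, lists and classes were chosen with earlier results of these data known. Values in full were planned for Plxnc1, Plxna4, Sema3e, members with a leading class and members past 0.5 in a class with at least 200 UMIs; others in text were chosen after their values were seen. The models of 13 members overlap 26 other listed genes, whose reads could not be told apart without strand. Alternatives covered gates, cell filters, the total for CPM, cell weights, interferon-responding cells, depth, class mix, UMI minimums and thresholds. Another setting, on RNA of other cells in neurons, is not reported here. Settings without the neurons highest in Fabp7 and Apoe, with 7 neuron classes, with Tafa4 in the cLTMR gate and with Mog in the oligodendrocyte-like gate were added after the data were seen.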

Additional observations from a re-analysis of the deposited data

Results flagged for a closer look

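Nrp2 did not go the same way in all classes when CFA was set against control. Its log2 ratio was 1.08 in non-myelinating Schwann cells, 0.54 in fibroblasts and 0.75 in endothelial cells, but -0.82 in satellite glia. With 1 library per group, this difference between classes was not tested. The satellite glia value rests on 98 control and 19 CFA UMIs.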

How the results depend on the processing

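No paired analysis was possible because each group had 1 library. As reported, 4 genes had a leading neuron class and 9 a leading broad class, 4 were past a log2 ratio of 0.5 either way in neurons, 17 gene and class pairs in the 10 classes compared were past it, and 1 partner gene was. With cells thinned, these counts were 1, 4, 1 and 8 for the family, and only 8, 21 and 14 genes then had enough UMIs for the first 3, with Plxnc1 as the gene past 0.5 in neurons (-0.64). Nrp1 and Sema3e led in cLTMR under both gate settings, while Sema7a lost its 2-fold lead with the gates doubled and Sema4c with them halved or with cells weighted equally. Sema3c and Sema3e lost their broad-class lead with the gates doubled. Plxna2 and Sema3f lost theirs with cells weighted equally, and without interferon-responding cells Sema3f lost it and Nrp2 gained one. A 3-fold lead left 1 neuron-class and 3 broad-class leaders, and a minimum of 20 UMIs gave 7 neuron-class leaders. With equal class weights, 1 gene was past 0.5 in neurons. Without interferon-responding cells, 11 pairs were past it, and with a minimum of 50 UMIs 29. With 1 UMI in each library as the minimum, 7 genes in neurons, 3 partner genes and 123 pairs were past 0.5. With a threshold of 0.3, the counts were 8, 2 and 41. The shares of all genes under these changed rules are not given here, so these counts do not set the family apart from other genes. The other 65 of 81 counts were within 1.5 times the reported ones, 192 of 220 levels and 129 of 137 ratios moved by less than their counting error. Only Sema5a in neurons changed sign, to -0.045 without the neurons highest in Fabp7 and Apoe, and the cause was not tested. Sema3b in thinned neurons was at -1.71. Depth limits all statements on T/NK cells, mural cells, NF and PEP Nefh+ neurons.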
